A study of Mus musculus with 18 samples.

Results

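Chromatin at 9 genes of the immediate early and stress response (Egr1, Egr2, Egr3, Fos, Fosb, Jun, Junb, Atf3 and Myc) was followed in mouse cardiomyocyte-enriched cells with and without G9a. The members were fixed by name, and every region in the authors' 4 deposited lists that overlapped a gene span or the 10 kb on either side (mm10) was taken, whatever its values. This gave 185 of 2377384 listed regions, at 9 of 21631 protein-coding genes of the annotation. G9a had 61 of them, H3K9me2 39, H3K27me3 40 and Mef2c 45. The mark is called H3K27me3 as in the sample labels, although the study's design text writes H3K27me2 in 1 place. The study profiled the 4 targets by chromatin immunoprecipitation and sequencing (ChIP-seq) in C57BL/6J mice of 2 genotypes, with 2 biological replicates of each target and genotype. The knockout (KO) was G9a flox/flox; alphaMHC-MerCreMer +/-, and the control (Cre) was alphaMHC-MerCreMer +/-, so both carry the Cre transgene, a tamoxifen-dependent recombinase under the cardiomyocyte promoter of the alpha myosin heavy chain. Recombination is thus limited to cells that use that promoter, and other cells of a cardiomyocyte-enriched population keep an intact gene. The sources used here give neither age, tamoxifen schedule nor the number of animals per library. One input library of each genotype exists in the labels and was not used here. The lists hold chromatin differences and no expression, so cardiomyocyte identity could not be checked against marker genes.

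The members are transcription factors whose genes are switched on within minutes of a stimulus, before any new protein has to be made. EGR proteins are zinc finger factors. FOS and JUN proteins pair through leucine zippers to form AP-1, ATF3 is a related leucine zipper factor of the stress response, and MYC drives growth and ribosome production. Their promoters are held ready and answer to serum response factor at the CArG box and to CREB at the CRE, and in the heart they are induced by pressure, adrenergic drive and injury. G9a (gene Ehmt2) is a histone H3 methyltransferase whose main product is H3K9me2. H3K27me3 is the mark of Polycomb repressive complex 2, which often covers silent developmental regulators, and Mef2c is a muscle transcription factor that binds an AT-rich site.

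Promoters of 6 of the 9 members were in the RefSeq-derived table (GRCm38.p6, the build of the lists), each running from 250 bases before to 50 after a gene start. Egr1, Egr3 and Myc are named only. Among these 6 genes, Fosb was the one with a listed region over a promoter. It is shown with 3 others: Egr2, where a start lies between listed H3K27me3 regions, and Jun and Atf3, which hold a MEF2-type match. Sequences read 5′ to 3′ on the gene's strand in lower case, and capitals mark matches on either strand to the CRE (TGACGTCA), the AP-1 site (TGANTCA), the EGR site (GCGNGGGCG), the E-box (CACGTG), the CArG box and the MEF2 site.
Fosb, chr7:19309996-19310295, minus strand: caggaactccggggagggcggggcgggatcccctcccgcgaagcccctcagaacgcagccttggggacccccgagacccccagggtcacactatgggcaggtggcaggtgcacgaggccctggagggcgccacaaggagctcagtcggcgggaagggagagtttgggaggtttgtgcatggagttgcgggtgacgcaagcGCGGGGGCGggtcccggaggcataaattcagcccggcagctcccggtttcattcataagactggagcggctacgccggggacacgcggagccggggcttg
Egr2, chr10:67537619-67537918, plus strand: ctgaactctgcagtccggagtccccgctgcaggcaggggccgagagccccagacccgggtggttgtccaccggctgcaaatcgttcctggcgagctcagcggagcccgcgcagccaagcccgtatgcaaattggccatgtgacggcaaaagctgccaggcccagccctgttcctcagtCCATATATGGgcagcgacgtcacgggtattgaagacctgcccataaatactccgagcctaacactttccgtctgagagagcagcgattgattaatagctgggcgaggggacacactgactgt
Atf3, chr1:191183284-191183583, minus strand: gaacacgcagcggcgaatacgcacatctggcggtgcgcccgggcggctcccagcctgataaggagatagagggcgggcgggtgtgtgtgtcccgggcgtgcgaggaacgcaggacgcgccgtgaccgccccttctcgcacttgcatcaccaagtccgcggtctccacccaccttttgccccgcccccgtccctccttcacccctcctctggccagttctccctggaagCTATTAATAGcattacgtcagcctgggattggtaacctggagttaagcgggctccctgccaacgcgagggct
Jun, chr4:95052173-95052472, minus strand: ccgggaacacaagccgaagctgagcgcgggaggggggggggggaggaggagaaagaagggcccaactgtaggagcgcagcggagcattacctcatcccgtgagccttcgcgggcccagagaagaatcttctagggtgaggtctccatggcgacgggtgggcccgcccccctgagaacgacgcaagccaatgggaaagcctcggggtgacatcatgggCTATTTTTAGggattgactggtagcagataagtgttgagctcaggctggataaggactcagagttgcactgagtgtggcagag
No matches of different kinds overlapped in the promoters of these 6 genes. The EGR site of Fosb begins 50 bases before the start, and 5.55% of the 32851 promoters in the table hold such a match. A CArG box was found in this Egr2 promoter 72 bases before the start, and 1.63% of promoters hold one. MEF2-type matches lie 33 bases before the Jun start and 22 before the Atf3 start, against 3.19% of promoters. The full CRE (1.79% of promoters) was absent from these promoters, while its shorter core TGACG, not in capitals here and held by 20.8% of promoters, occurred in those of Egr2, Fos, Fosb, Junb and Atf3. None of these letters shows that a factor was bound.

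Each listed region carries 4 whole numbers, 1 per library, called values here, and a -log10 p, all of them the authors'. The sources used here do not give the scale of the values and their depth is unknown, so they are compared only within a list, and between regions only per kb. Sequence that is not listed has no value, and an unlisted promoter may carry as much signal as a listed one. A region was called apart where the KO pair lay wholly above or wholly below the Cre pair. The log2 ratio is that of the KO mean over the Cre mean, each plus 1. With 2 values against 2 an exact two-sided permutation test cannot give a p below 0.333, so none was run on single regions.

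Directions also depend on how libraries are set against each other. When the 4 libraries of a list were brought to a common median, the log2 ratio at the middle of the list shifted by 0.31 (G9a), -0.29 (H3K9me2), 0.28 (H3K27me3) and 0.33 (Mef2c). The deposited values are given below unscaled, and it is said where this scaling ended the separation of a region described as apart, or turned its sign.

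As a check of the targeted gene, the strongest G9a region over Ehmt2 (chromosome 17, 34907251 to 34908750) stood at 410 and 353 in Cre against 67 and 106 in KO in the deposited list. H3K9me2 over the same gene (34899001 to 34900050) went the other way, from 108 and 64 to 322 and 181. Since the strongest G9a region was apart and lower at 61.7% of protein-coding genes, the first value is a weak check of the knockout. Summed over its list, a library ranged from 44305272 (Mef2c, first KO value) to 114744154 (H3K27me3, first Cre value), and these are sums over chosen regions, not depths. The KO libraries had the lower sums for G9a, H3K27me3 and Mef2c and the higher ones for H3K9me2.

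Across the 9 genes the lists ran in mixed directions. Of the 35 combinations of gene and list that had a region, 31 held regions both lower and higher in KO. For G9a, 37 of 61 regions were lower in KO (60.7%, exact 95% binomial interval 47.3 to 72.9), beside 61.5% of the whole list. H3K9me2 was lower at 15 of 39 (38.5%, 23.4 to 55.4; whole list 39.7%), H3K27me3 at 29 of 40 (72.5%, 56.1 to 85.4; 63.3%) and Mef2c at 23 of 45 (51.1%, 35.8 to 66.3; 61.7%). Each interval covers the share of its whole list, and neighbouring regions are not independent. Median log2 ratios of the members' regions were -0.73 (G9a), 0.70 (H3K9me2), -0.55 (H3K27me3) and -0.50 (Mef2c), beside -0.73, 0.72, -0.64 and -0.75 over all regions.

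Values were apart at 34 of 61 G9a regions (55.7%), of which 21 were lower and 13 higher, against 61.5% of all G9a regions (39.2% lower, 22.4% higher). For H3K9me2, 19 of 39 were apart, 7 lower and 12 higher, against 65.7% of the list (24.9% lower, 40.9% higher). In H3K27me3, 21 of 40 were apart, 16 lower and 5 higher, against 67.1% (44.5% lower, 22.6% higher). Mef2c had 28 of 45 apart, 15 lower and 13 higher, against 65.9% (42.7% lower, 23.3% higher). In the unscaled values, the members' shares of regions apart, both directions together, lay below those of all 4 lists. After scaling, the split of lower to higher became 17 to 20 (G9a), 10 to 8 (H3K9me2), 7 to 9 (H3K27me3) and 7 to 17 (Mef2c). The whole lists were then at 27.4% to 29.1%, 31.3% to 29.8%, 30.3% to 29.7% and 29.7% to 30.4%. With scaling, the members' share apart in both directions lay above the whole list for G9a. It stayed below the whole list for H3K9me2, H3K27me3 and Mef2c. With 1 value left out, 3 values part more readily than 4, and the counts of regions apart were at most 54 for G9a (without the first KO value). For H3K9me2 they were 30 without the second Cre, 29 without the first KO and 32 without the second KO value. For H3K27me3 they were 32 without either the second Cre or the first KO value. Whole-list shares with 1 value left out are not given here.

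In limma (empirical Bayes with a trend, fitted over each whole list, Benjamini-Hochberg adjusted), 0 of the 185 member regions passed an adjusted p of 0.05, and the smallest adjusted p was 0.322. Over the whole lists 0% of G9a, H3K9me2 and Mef2c regions and 0.00119% of H3K27me3 regions passed. An unadjusted p under 0.05 was reached by 5 G9a, 2 H3K9me2, 4 H3K27me3 and 3 Mef2c member regions, against 6.5%, 11.1%, 15.3% and 11.3% of the lists. Of these, 4 G9a regions were lower and 1 higher (lists 5.12% and 1.38%), 0 and 2 for H3K9me2 (2.89% and 8.19%), 2 and 2 for H3K27me3 (12.3% and 3%), and 2 and 1 for Mef2c (8.62% and 2.66%). Without a trend these counts were 4, 4, 2 and 6. Without the first KO value the G9a fit rests on a single KO library, and regions of the members and of the whole list then passed the adjusted threshold. That outcome is not read as a result about the members. Since the lists hold regions selected for a difference, the limma p-values are too small. None of the differences below passed the adjusted test in the fit of all 4 values. The limma SEs and p-values given below belong to the difference between mean log2 values. That difference is not the log2 ratio of means printed beside them, and the 2 can lie apart where replicates differ. At the leading H3K9me2 region of Egr1, for example, the limma difference was 3.48 and the log2 ratio 2.42.

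**Figure D1:**
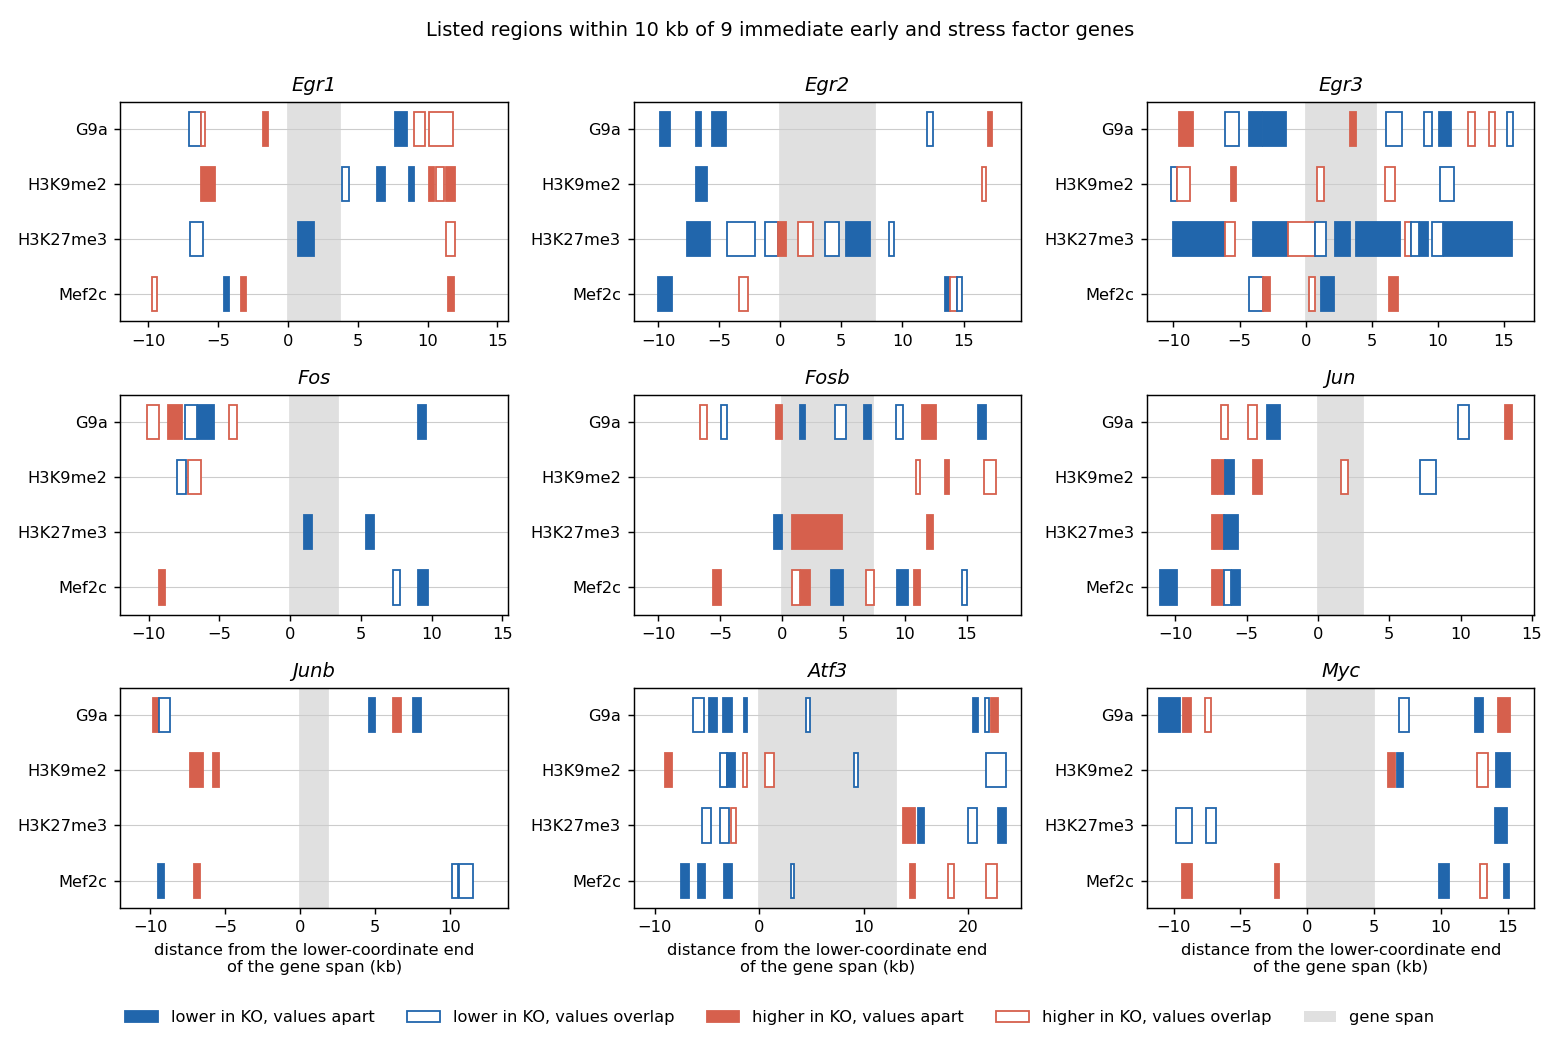
Listed regions around each gene for the 4 lists, with the distance in kb from the lower-coordinate end of the gene span on the x axis; blue is lower and red higher in KO, filled bars have values apart and open bars overlapping values, and grey is the gene span. Egr3 is covered by H3K27me3 regions over most of its window, Junb has none, and the spans of Junb and Myc hold no region of any list.

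Only 29 of the 185 regions touched a gene span. No list had a region over the span of Junb or Myc. The span of Jun was touched by H3K9me2 alone, and those of Egr1, Egr2 and Fos by H3K27me3 alone. Fosb had regions over its span in the G9a, H3K27me3 and Mef2c lists. Outside the spans, 27 regions overlapped another gene, among them Gm32255 beside Egr2, Junos beside Jun, Rnaseh2a and Prdx2 beside Junb and Fam71a beside Atf3. Distances below are from the nearest end of the span.

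The most extensive chromatin feature at these genes was H3K27me3 at Egr3 and Egr2, 2 EGR factors that also act in development, in muscle spindles and in the hindbrain and myelinating glia respectively. At Egr3 (gene ID 13655, chromosome 14, 70077317 to 70082613) 12 listed H3K27me3 regions covered 87.0% of the window and 79.2% of the gene span. Egr2 (gene ID 13654, chromosome 10, 67534469 to 67542188) had 8 regions over 38.1% of its window and 61.3% of its span. Per kb of listed sequence the Cre level was 2.78 times the list median at Egr3 and 2.50 times at Egr2, against 0.913 to 1.21 times at the other 6 genes with a region. The densest region of Egr3 (70078051 to 70078850, within the gene) stood at 6.58 times the median, with a Cre mean of 1236 and a KO mean of 1070 per kb. At Egr2 the densest one (67538101 to 67539250, within the gene) stood at 4.76 times, and its small log2 ratio of -0.24 turned to 0.04 on scaling. All 14 member regions in the top 5% of the H3K27me3 list by Cre value per kb lay at these genes, 8 at Egr3 and 6 at Egr2.

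**Figure D2:**
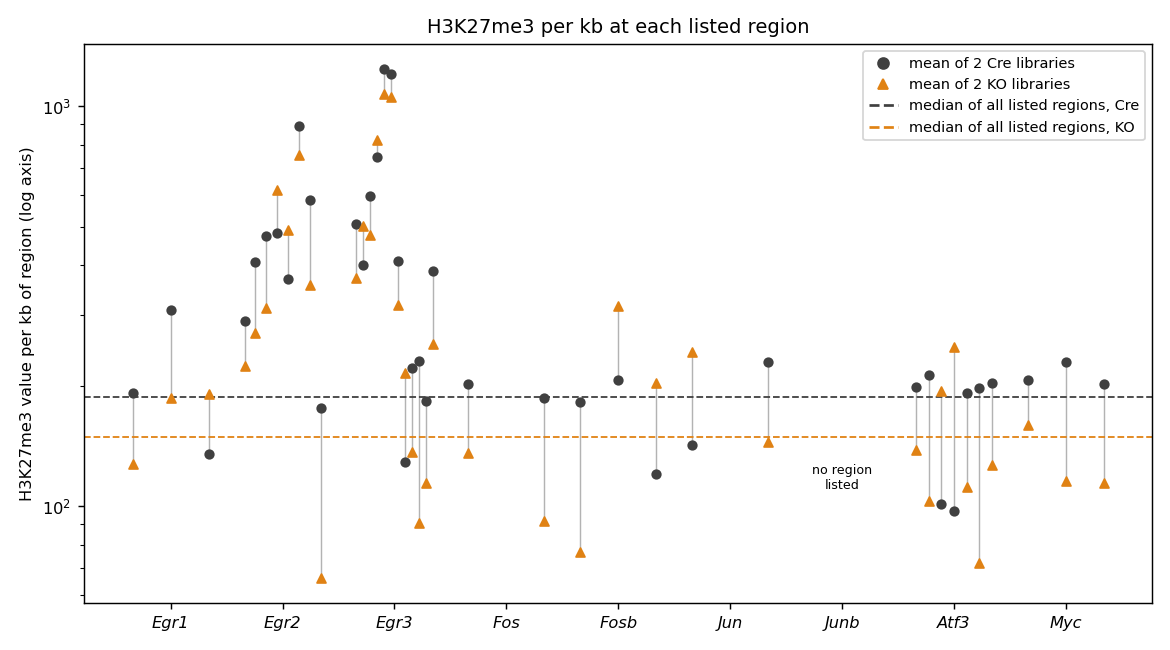
H3K27me3 value per kb (log axis) at every listed region of each gene, left to right by position, with the mean of the 2 Cre libraries as dots and of the 2 KO libraries as triangles, and the medians of the whole list as dashed lines. Regions of Egr2 and Egr3 reach 894 and 1236 per kb in Cre, while no Cre mean at the other genes exceeds 310.

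H3K27me3 log2 ratios at Egr3 lay between -0.37 and 0.14 at the 4 regions touching the gene and ran from -1.32 to 0.73 outside it. The strongest Egr3 region by -log10 p (70087751 to 70092950, 5200 bases, 5138 bases from the span) had values of 1934 and 2085 in Cre against 1598 and 1043 in KO in the deposited list. Both KO values lay below both Cre values, at a log2 ratio of -0.61 that ran from -0.95 to -0.33 with any 1 value left out (limma SE 0.24, adjusted p 0.322). On the other side, the region from 70067301 to 70071250 had 1857 and 2152 in Cre against 1327 and 1617 in KO, at a log2 ratio of -0.45. Once scaled, that ratio was -0.17 and the values overlapped. Over the middle of the gene the ratios were nearer 0: the deposited values at 70079551 to 70080700 were 1416 and 1356 in Cre against 1300 and 1129 in KO (log2 ratio -0.19). At the neighbouring 70076001 to 70078050 they were 1780 and 1283 against 1519 and 1858 (0.14), and those overlapped. Of the 12 Egr3 regions 6 were apart and lower in KO and 0 apart and higher, and after scaling 1 was lower and 3 were higher. The strongest region then had a log2 ratio of -0.31 and overlapping values, and the densest ones turned from -0.21 to 0.07 and from -0.19 to 0.10.

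At Egr2, the strongest H3K27me3 region lay within the gene (67539851 to 67541800), with 1155 and 1113 in Cre against 753 and 643 in KO in the deposited list. Its groups did not overlap, before or after scaling, and the log2 ratio was -0.70 (-0.82 to -0.59 with 1 value left out, limma SE 0.26, adjusted p 0.322). Near the lower-coordinate end of the span, which is the start side of this gene, the direction was the opposite: the region from 67534301 to 67534900 had 288 and 291 in Cre against 354 and 388 in KO, at a log2 ratio of 0.36 with values apart, in a stretch that Gm32255 shares. The region after it (67535951 to 67537150) had 503 and 385 against 450 and 724, which overlapped. The printed Egr2 promoter lies in the unlisted stretch that follows, 183 bases before the region with the highest value per kb.

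The other targets at Egr3 had strongest regions with log2 ratios further from 0. G9a was lower in KO at its strongest region (70074051 to 70075800, 1517 bases from the span), with 517 and 341 in Cre against 153 and 116 in KO in the deposited list. The values were apart, at a log2 ratio of -1.67 (-1.93 to -1.34, limma SE 0.54, adjusted p 0.454). H3K27me3 over the same stretch (70073301 to 70076000) had a log2 ratio of -0.33. Mef2c within it went the other way at 70074101 to 70074600, with 39 and 36 in Cre against 82 and 66 in KO, at a log2 ratio of 0.96. Within the gene, G9a at 70080701 to 70081100 was apart and higher, with 27 and 47 in Cre against 80 and 66 in KO (log2 ratio 0.96). Of the 11 G9a regions of Egr3, 3 were apart and lower and 2 apart and higher. After scaling these counts were 2 and 4. Mef2c within the gene, at 70078451 to 70079450, had 197 and 193 against 179 and 36 (log2 ratio -0.85, and -0.12 without the second KO value), which overlapped once scaled. The strongest H3K9me2 region (70067601 to 70068600) had overlapping values, 141 and 43 against 127 and 293.

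Around Egr2 the listed regions of G9a, H3K9me2 and Mef2c all lay outside the gene. On its start side the strongest G9a region (67528851 to 67530000) had 279 and 252 in Cre against 193 and 59 in KO (log2 ratio -1.07, from -2.15 to -0.46). H3K9me2 at 67527551 to 67528450 had 144 and 308 against 52 and 133, at a log2 ratio of -1.28 (-2.10 to -0.63). A G9a region and an H3K27me3 region overlapping that H3K9me2 region were also apart and lower, with log2 ratios of -0.63 and -0.38, the latter overlapping once scaled. All of these lie over Gm32255, a neighbouring transcript, so that they cannot be assigned to Egr2 alone. The strongest Mef2c region, over Ado, had overlapping values of 83 and 18 in Cre against 40 and 190 in KO.

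Egr1 (gene ID 13653, chromosome 18, 34861207 to 34864956) is the EGR factor most widely induced by growth stimuli. H3K27me3 over its span (34861901 to 34863050) had values of 425 and 288 in Cre against 246 and 183 in KO in the deposited list. The groups were apart at a log2 ratio of -0.73 (-0.98 to -0.42, limma SE 0.44, adjusted p 0.356), and the Cre level per kb was 1.65 times the list median. After scaling the ratio was -0.44 and the groups overlapped. Closest to the gene among the G9a regions, at 1407 bases on the lower-coordinate side, the region from 34859401 to 34859800 had 0 and 7 in Cre against 62 and 124 in KO. Its log2 ratio was 4.38, the highest of the members' G9a regions, and rests on Cre values near 0. On the other side of the gene (34868901 to 34869700) G9a had 280 and 68 in Cre against 60 and 4 in KO, at a log2 ratio of -2.41 that ran from -5.13 to -1.06 with 1 value left out. The first Cre and first KO values were the higher of their pairs there.

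H3K9me2 at Egr1 was higher in KO 5257 bases from the span (34854951 to 34855950), with 77 and 4 in Cre against 193 and 249 in KO in the deposited list, a log2 ratio of 2.42 (1.51 to 5.47, limma SE 1.21, adjusted p 0.400). Mef2c was also higher at its strongest region (34857851 to 34858200), with 6 and 12 against 74 and 61, at a log2 ratio of 2.78 (2.40 to 3.29). A Mef2c region 4207 bases from the span, in contrast, had 127 and 40 in Cre against 21 and 17 in KO. Of the 7 H3K9me2 regions of Egr1, 3 were apart and higher and 2 apart and lower. The lower ones lay on the other side of the gene and stayed apart on scaling. At 34867601 to 34868150 H3K9me2 had 97 and 74 in Cre against 67 and 29 in KO. At 34869901 to 34870250 it had 73 and 43 against 33 and 19. Farther along, from 34871301 to 34873150, all 6 overlapping regions of the 4 lists were higher in KO. Those of H3K9me2 at 34872501 to 34873150 (69 and 32 against 151 and 102) and of Mef2c at 34872701 to 34873100 (40 and 32 against 82 and 86) were apart, while the G9a values of 383 and 91 against 519 and 369 overlapped before scaling.

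Fos (gene ID 14281, chromosome 12, 85473890 to 85477274), the founding partner of JUN in AP-1, was the exception among the strongest G9a regions. That region (85465251 to 85466250, 7640 bases before the start) had 108 and 13 in Cre against 248 and 174 in KO in the deposited list. It was apart and higher in KO, at a log2 ratio of 1.79 (0.96 to 3.92, limma SE 1.02, adjusted p 0.454). At the other 8 genes the strongest G9a region was apart and lower, as it was at 61.7% of protein-coding genes, and higher at 24.1%. Beyond the end of Fos, G9a and Mef2c regions that begin at the same base were both lower: Mef2c (85482951 to 85483600) had 100 and 184 in Cre against 47 and 9 in KO, at a log2 ratio of -2.30 (-3.84 to -1.57, limma SE 1.02, adjusted p 0.399). G9a there had 128 and 89 against 64 and 9, at a log2 ratio of -1.55. Before the start, in contrast, Mef2c at 85464601 to 85465050 was apart and higher, with 14 and 37 against 92 and 86 (log2 ratio 1.76). A G9a region on that side (85467351 to 85468500) was apart and lower only unscaled, with 175 and 327 against 155 and 72. H3K27me3 within the gene (85474901 to 85475450) had 125 and 97 against 72 and 77 (log2 ratio -0.57), near the list median per kb. Both H3K9me2 regions of Fos had overlapping values, and the stronger one turned from -0.91 to 0.68 without the first Cre value.

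Fosb (gene ID 14282, chromosome 7, 19302696 to 19310118), a FOS relative whose products persist after repeated stimuli, had the widest H3K27me3 region outside the EGR genes and Mef2c regions on top of it. That H3K27me3 region (19303501 to 19307600, 4100 bases within the gene) had 1034 and 660 in Cre against 1344 and 1257 in KO in the deposited list. Both KO values were above both Cre values, at a log2 ratio of 0.62 (0.33 to 0.98, limma SE 0.28, adjusted p 0.324). Mef2c within it (19304301 to 19305000) had 33 and 49 against 158 and 171, at a log2 ratio of 1.98 (1.73 to 2.28, limma SE 0.69, adjusted p 0.399). A second Mef2c region that shares 900 bases with it (19306701 to 19307700) lay the other way, with 207 and 189 against 97 and 179 (log2 ratio -0.52, apart only unscaled). Another (19303551 to 19304150) had 70 and 34 against 154 and 61, which overlapped unless scaled. G9a at 19304151 to 19304600, overlapping the H3K27me3 region and the higher Mef2c region, was apart in the other direction, with 76 and 83 in Cre against 22 and 29 in KO (log2 ratio -1.60). The Mef2c region over the promoter (19309551 to 19310200) shared 205 bases with the printed sequence and had values of 101 and 8 against 79 and 121, which overlapped unless scaled. A G9a region that ended just short of that promoter had 123 and 99 in Cre against 58 and 49 in KO, at a log2 ratio of -1.04 with values apart. At the other end of the gene the directions were reversed, also after scaling. H3K27me3 there (19302101 to 19302700) was apart and lower, with 130 and 89 against 19 and 73 (log2 ratio -1.23). G9a (19302251 to 19302750) was apart and higher, with 81 and 27 against 90 and 99 (log2 ratio 0.80). H3K9me2 was listed only before the start of Fosb, higher in KO at all 3 regions and apart at 1 of them, a separation lost on scaling.

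Jun (gene ID 16476, chromosome 4, 95049036 to 95052222), the central AP-1 subunit, had its most crowded stretch 5 to 8 kb beyond the gene's end. From 95041601 onward H3K9me2 (15 and 0 in Cre, 68 and 79 in KO), H3K27me3 (117 and 125 against 190 and 222) and Mef2c (81 and 120 against 197 and 196) were apart and higher in the deposited lists. Their log2 ratios were 3.13, 0.76 and 0.96, and a second H3K9me2 region beside the first had 18 and 30 against 99 and 108. Directly after it the direction turned within about 1 kb: H3K9me2 at 95042501 to 95043150 had 105 and 96 against 21 and 93. H3K27me3 at 95042451 to 95043400 had 213 and 223 against 95 and 179, and Mef2c at 95043001 to 95043550 had 119 and 74 against 31 and 58. All of the latter were apart and lower, with log2 ratios of -0.81, -0.67 and -1.10. No H3K27me3 region touched the Jun gene itself.

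The strongest Mef2c region of Jun (95037951 to 95039150, 9886 bases from the span) had 273 and 249 in Cre against 94 and 84 in KO in the deposited list. Its log2 ratio of -1.54 ran only from -1.62 to -1.46 with 1 value left out (limma SE 0.52, unadjusted p 0.0135, adjusted p 0.399). G9a at 95045451 to 95046350 had 181 and 183 against 152 and 20, so that its log2 ratio of -1.07 was -0.26 without the second KO value and its groups overlapped after scaling. Within the gene the single H3K9me2 region (95050651 to 95051150) had 65 and 2 against 95 and 61, which overlapped. The MEF2-type match of the printed Jun promoter was 8623 bases or more from the nearest listed Mef2c region, as measured from the promoter's end.

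Junb (gene ID 16477, chromosome 8, 84976909 to 84978748), a JUN relative that can restrain Jun, had no H3K27me3 region in its window, while 86.6% of protein-coding genes had one. Windows grow with gene length and Junb spans 1840 bases, so that share is not for windows of like size. The strongest G9a region (84981501 to 84981900, 2753 bases before the start) had 79 and 87 in Cre against 29 and 1 in KO in the deposited list, a log2 ratio of -2.39 (-5.39 to -1.49, limma SE 1.99). Both H3K9me2 regions lay over Prdx2, the stronger with 20 and 23 against 81 and 82. That log2 ratio of 1.87 (1.78 to 1.97) moved least, on leaving out 1 value, of the members' leading H3K9me2 regions. Of the 5 G9a regions of Junb, 2 were apart and lower and 2 apart and higher. Mef2c over Rnaseh2a (84967451 to 84967800) was apart and lower, with 72 and 66 against 23 and 1, while the region with the highest -log10 p had overlapping values. Within the weaker H3K9me2 region, Mef2c at 84969851 to 84970250 was apart and higher, with 31 and 20 against 69 and 69 (log2 ratio 1.40).

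Atf3 (gene ID 11910, chromosome 1, 191170296 to 191183333), induced by many kinds of cell stress, had the members' highest H3K27me3 ratio on its promoter side. The region from 191184051 to 191185200, 718 bases before the start, had 124 and 99 in Cre against 267 and 307 in KO in the deposited list. The groups were apart at a log2 ratio of 1.36 (1.20 to 1.53, limma SE 0.50, adjusted p 0.322), from a Cre level of 0.516 times the list median per kb. Mef2c inside it (191184751 to 191185200) was apart and higher as well, with 52 and 16 against 80 and 102, at a log2 ratio of 1.39. The printed Atf3 promoter, with its MEF2-type match, lies 468 bases from the first and 1168 bases from the second. H3K27me3 was lower just beyond, at 191185451 to 191186000, with 106 and 105 against 72 and 51.

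On the other side of Atf3, 2 to 4 kb beyond its end, regions of all 4 lists overlapped and 5 of 6 were lower in KO. G9a (191166851 to 191167700) had 269 and 141 in Cre against 16 and 55 in KO in the deposited list, a log2 ratio of -2.50 (-3.60 to -1.88, limma SE 0.88, adjusted p 0.454). Mef2c there had 189 and 105 against 82 and 36 (log2 ratio -1.30) and H3K9me2 112 and 142 against 56 and 58 (-1.14), both apart, though Mef2c not after scaling. The H3K27me3 values of 269 and 113 against 142 and 43 overlapped. G9a was lower in KO at 7 of the 8 regions of Atf3, and 4 of these were apart.

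Myc (gene ID 17869, chromosome 15, 61985341 to 61990361) had listed regions only outside the gene. Its strongest G9a region (61974251 to 61975850, 9491 bases from the span) had 386 and 378 in Cre against 188 and 111 in KO in the deposited list, apart at a log2 ratio of -1.35 (-1.77 to -1.02, limma SE 0.55, adjusted p 0.454). Mef2c 2091 bases from the span (61982901 to 61983250) was apart and higher, with 18 and 8 against 41 and 107, at a log2 ratio of 2.42 (1.58 to 3.06). On the far side of the gene, about 9 kb away, H3K9me2 (160 and 264 against 139 and 39) and H3K27me3 (134 and 229 against 108 and 97) were apart and lower, the latter only unscaled. G9a over the same stretch was apart and higher, with 142 and 161 in Cre against 245 and 222 in KO. Mef2c there (62000051 to 62000450) had 54 and 68 against 44 and 18. Nearer the gene, Mef2c at 61995201 to 61995950 had 141 and 218 against 76 and 126. Both Mef2c regions were apart and lower only unscaled. G9a at 61997901 to 61998500 was apart and lower, with 185 and 110 against 37 and 61. The leading H3K27me3 region of Myc turned from -0.98 to 0.18 without the second Cre value.

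**Figure D3:**
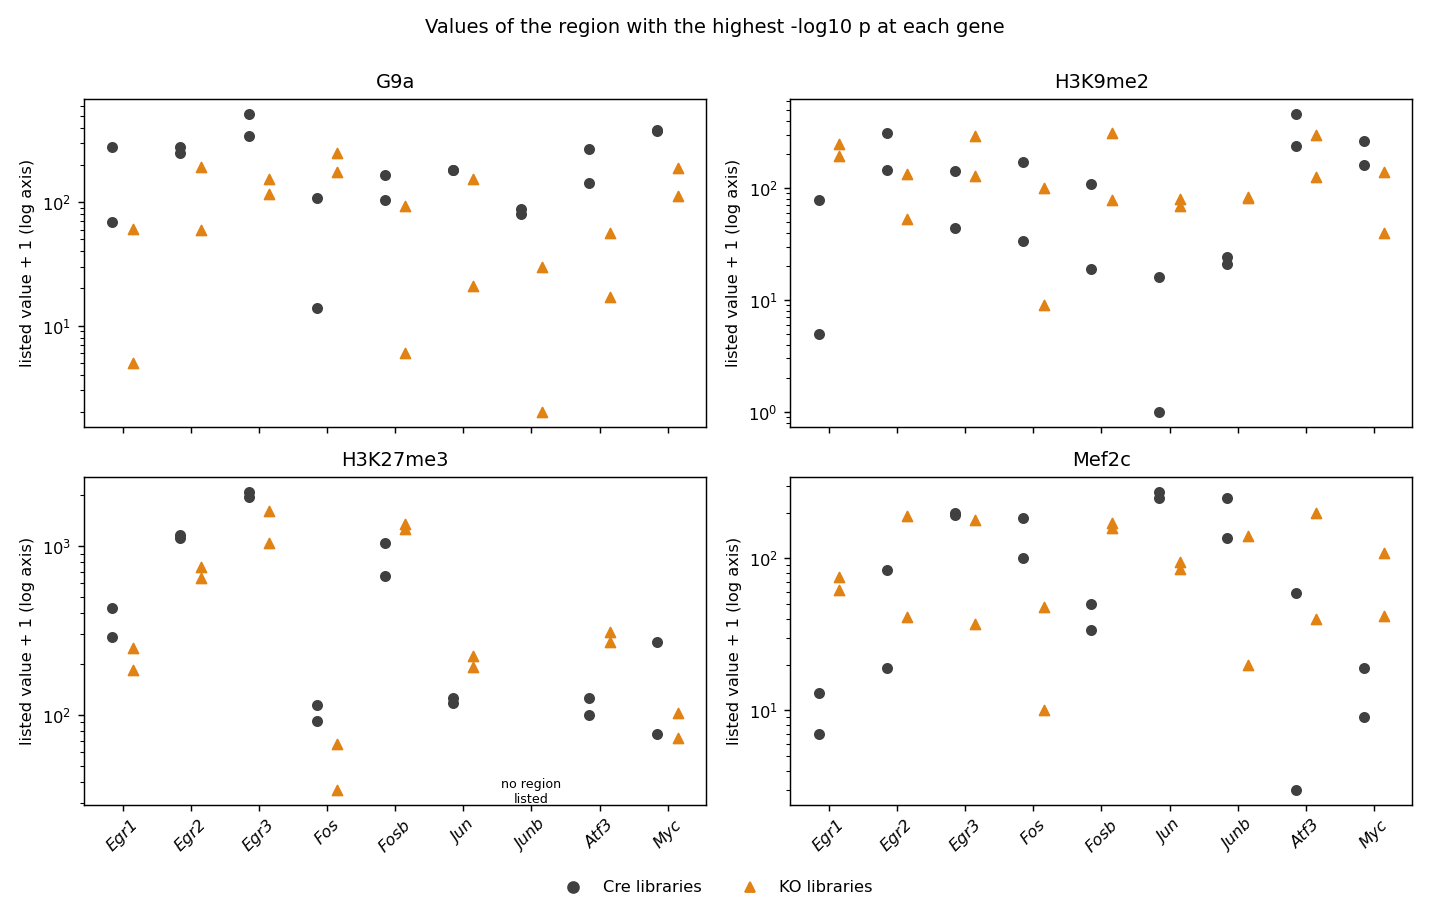
Values in every library at the region with the highest -log10 p of each gene and list, as the listed value plus 1 on a log axis, with 2 Cre libraries (dots) and 2 KO libraries (triangles). G9a values are apart at all 9 genes and lower in KO at 8, while 4 of 9 H3K9me2, 1 of 8 H3K27me3 and 3 of 9 Mef2c regions have overlapping groups.

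Set side by side, the leading regions differed among lists. Those of G9a were apart and lower at 8 genes and higher at 1. H3K9me2 had 2 lower (Egr2 and Myc), 3 higher (Egr1, Jun and Junb) and 4 with overlapping values, against 27.1% lower and 62.3% higher over protein-coding genes. For H3K27me3, 4 were lower (the EGR genes and Fos), 3 higher (Fosb, Jun and Atf3) and 1 overlapped, against 56.1% and 21.8%. Mef2c had 3 lower (Egr3, Fos and Jun), 3 higher (Egr1, Fosb and Myc) and 3 that overlapped, against 61.6% and 26.5%. A leading region is chosen among all regions of a window, and windows hold unequal numbers of them. For H3K9me2 the median protein-coding gene had 9 regions, while the members had 2 to 7. The shares over protein-coding genes are therefore not for like windows. After scaling, lower, higher and overlapping leading regions numbered 6, 1 and 2 for G9a, where Fosb and Jun came to overlap, 3, 3 and 3 for H3K9me2, 2, 3 and 3 for H3K27me3, and 2, 3 and 4 for Mef2c. Of the 35 leading regions 32 kept their sign with any 1 value left out, and of all 185 regions 145 did.

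**Figure D4:**
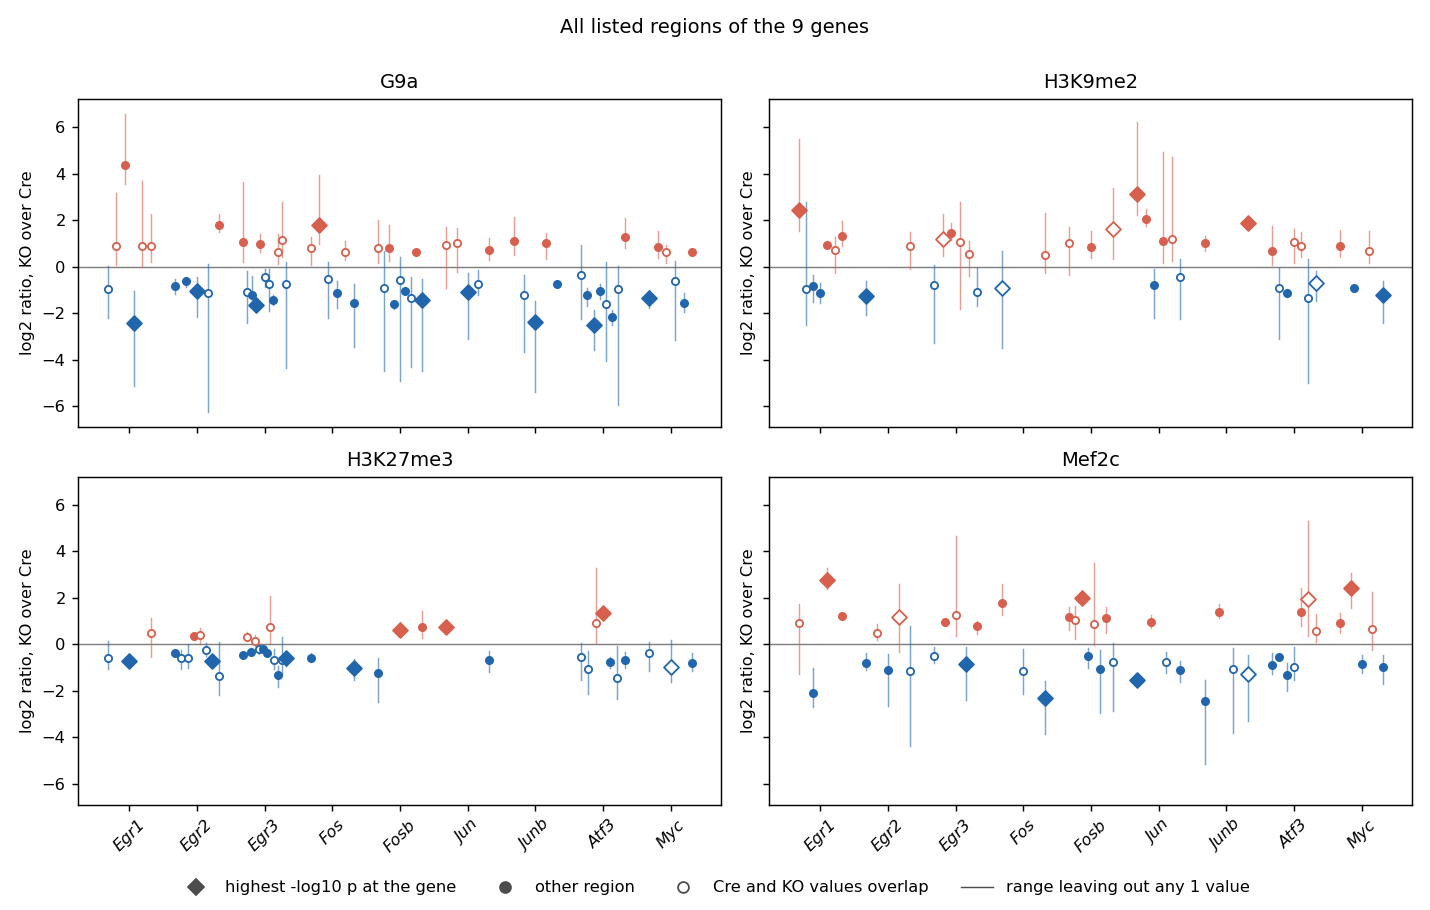
Log2 ratio of KO over Cre for all 185 regions by gene and list, with diamonds for the region of highest -log10 p, open symbols where Cre and KO values overlap, and lines from the lowest to the highest ratio with any 1 value left out. H3K27me3 ratios stay between -1.44 and 1.36, while those of G9a range from -2.50 to 4.38.

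Cre levels per kb of the members' regions were ordinary for the lists in the other targets. For G9a they ran from 0.0512 to 1.44 times the list median, with a median of 0.955, for H3K9me2 from 0.189 to 2.22 (0.925) and for Mef2c from 0.154 to 1.43 (0.914). Regions of different lists that shared at least 50% of the shorter one formed 107 pairs at the members, and 69 of these (64.5%) had the same direction, beside 60.0% over all such pairs of the whole lists. The pairs with the most frequent same direction were H3K9me2 with Mef2c (10 of 12, whole lists 56.7%) and H3K9me2 with H3K27me3 (11 of 15, 55.4%). G9a with H3K9me2, the enzyme and its product, had the same direction at 13 of 21 pairs (whole lists 57.0%), and G9a with H3K27me3 at 12 of 24 (63.7%). These pairs share genes and stretches, and the sources used here do not say whether the libraries of different targets came from the same animals.

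Beyond the 9 members, 49 other genes of the pathway were read by their strongest region in the same windows: AP-1 and ATF relatives, EGR corepressors, the MYC network, SRF and CREB with their cofactors, other immediate early genes, and stress kinases with their phosphatases. In limma 0 of these strongest regions passed an adjusted p of 0.05 in any list, while an unadjusted p under 0.05 was reached at 11 of 48 genes with a region (G9a), 18 of 48 (H3K9me2), 17 of 37 (H3K27me3) and 23 of 49 (Mef2c). Strongest regions are chosen for their difference, and over all protein-coding genes with a region 41.1%, 57.7%, 60.8% and 58.1% reached it. G9a was apart and lower at 24 and higher at 18 (49.0% and 36.7%, against 61.7% and 24.1% of protein-coding genes). H3K9me2 was lower at 17 and higher at 29 (34.7% and 59.2%, against 27.1% and 62.3%), and H3K27me3 lower at 20 and higher at 9 (40.8% and 18.4%, against 56.1% and 21.8%), with 12 genes holding no region. Mef2c was lower at 33 and higher at 14 (67.3% and 28.6%, against 61.6% and 26.5%). After scaling, the H3K27me3 split was 16 to 14.

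Among these genes the lower G9a regions with the highest -log10 p lay at Mycl, a MYC relative (469 and 326 in Cre, 108 and 68 in KO), Nr4a1, an orphan nuclear receptor (481 and 269 against 155 and 59), and Mrtfa, an SRF coactivator (110 and 98 against 0 and 3), in the deposited list. The higher ones were at Creb1, Mrtfb and Dusp4, with log2 ratios of 1.70, 3.09 and 3.06. H3K9me2 was lower at Elk3 (-3.32) and Mapk8 (-4.11) and higher at the MAP kinase phosphatase gene Dusp1, with 9 and 3 in Cre against 125 and 162 in KO. Mga and Batf, with log2 ratios of 6.28 and 3.38, were higher as well, and at Mga the Cre values were 0 and 1. H3K27me3 was lower at Batf3, with 1364 and 1151 against 508 and 659, and at Dusp4 (-0.55) and Mapk8 (-1.67), with Dusp4 overlapping once scaled. It was higher at Nr4a3 (887 and 676 against 1195 and 1590), Mapk14 (1.42) and Egr4, the fourth EGR gene, with 479 and 251 against 531 and 743. For Mef2c the lower regions were at Mapk9 (403 and 357 against 79 and 66), Ier5 (-2.83) and Mnt (-4.79), and the higher ones at Mapk14 (3.69), Mrtfb (1.98) and Crem (1.81). Limma SEs of these differences ran from 0.21 for Dusp4 in H3K27me3 to 3.51 for Mga in H3K9me2.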

How the data were processed

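The submitters' processing notes name the aligner BWA 0.7.10-r789, SAMtools 1.1 and the build mm10. The authors deposited 1 list of regions per target. Each region has a text cell with 4 values, the first pair Cre and the second KO by the list's name, and a -log10 p, all other quantities of no stated unit. The sources used here name no caller, normalization or use of input, so no count model was used and no depth-based interval is given. The values carry no replicate number. The smallest listed -log10 p is 2.

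Log2 ratios (pseudocount 1) and windows were computed in Python 3.11.15 with pandas 2.3.3. limma 3.58.1 in R 4.3.3 was fitted over each whole list on log2 of the value plus 1. A run on simulated data, with less noise than these libraries show, checked the code only and does not measure power here. Gene spans came from GRCm38.p6. All members and 49 further pathway names matched, 4 of the latter through older symbols. Members and lists were chosen with earlier results of these data known. Every region of a member could be named. For the other genes the rule named, per list, the 3 lower and 3 higher with the highest -log10 p among strongest regions with values apart, of which 1 is not reported here. Alternatives were median scaling, 2 kb windows, a -log10 p of at least 5, a mean value of at least 50, a pseudocount of 10, no trend, and leaving out each value.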

Additional observations from a re-analysis of the deposited data

How the results depend on the processing

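No paired analysis was possible because the listed values carry no replicate number. No member region passed the adjusted limma threshold under any alternative, except 6 for G9a without the first KO value (range over leaving out 1 value 0 to 6 for G9a, 0 to 0 for the other lists). With windows of 2 kb, values were apart at 7 of 12 G9a, 2 of 9 H3K9me2, 11 of 17 H3K27me3 and 6 of 10 Mef2c regions. The whole lists, which have no windows, stood at 61.5%, 65.7%, 67.1% and 65.9%. With a -log10 p of at least 5, values were apart at 10 of 15 H3K9me2, 12 of 18 H3K27me3 and 18 of 21 Mef2c regions. Fewer regions enter both settings. With 1 value left out, 45 to 54 of 61 G9a and 24 to 32 of 39 H3K9me2 regions were apart. The H3K9me2 count was 30, 29 and 32 without the second Cre, first KO and second KO value. For H3K27me3 28 to 32 of 40 were apart, and for Mef2c 35 to 39 of 45. Whole-list shares apart under the stricter p and with 1 value left out are not given here, so these counts cannot be set against the lists. The share lower in KO moved for G9a, to 75% in 2 kb windows and 76.7% under the stricter p (whole list 66.5%), while H3K27me3 was at 83.3% under the stricter p (69.7%) and 65% with median scaling (62.6%). It lay within 52.5 to 62.3% for G9a, 30.8 to 46.2% for H3K9me2, 62.5 to 72.5% for H3K27me3 and 48.9 to 55.6% for Mef2c with 1 value left out. Of the 35 leading log2 ratios, none changed sign with median scaling (of all 185 regions 3 did, all H3K27me3) or a pseudocount of 10. Leaving out 1 value turned 3: Fos H3K9me2 to 0.68 without the first Cre value, Myc H3K27me3 to 0.18 without the second Cre value and Egr2 Mef2c to -0.33 without the second KO value. A lone remaining value is assumed to vary like the other pair. Depth is unknown and could not be weighed.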
